A study of Mus musculus with 8 samples.

Results

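The 40 genes described here encode plasma proteins of blood clotting, of its inhibitors, of clot removal and of complement, and were taken from a fixed list of symbols among the 55401 genes of the deposited tables. Their transcripts were followed in mouse liver after partial hepatectomy, the surgical removal of part of the liver, with and without knockdown of Tbl1xr1, which encodes a protein that works with the NCoR corepressor. All mice were C57BL/6J per the labels. Both groups received a short hairpin RNA from an adeno-associated virus aimed at hepatocytes, either the control hairpin shNC or the hairpin shTbl1xr1, had surgery 4 weeks later, and gave liver on day 2 after it. Each group has 4 libraries of total RNA, numbered 1 to 4. There was no liver without virus and none without surgery among the samples, so every value below is from a regenerating liver that carries a virus. Whole liver was sequenced, so cells other than hepatocytes, which the virus was not aimed at, contribute to each value. The labels do not say that each library is a separate animal, so the spread behind every p-value is that of libraries and may be technical.

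Most plasma proteins of clotting and complement are made by hepatocytes. Clotting runs as a chain of proteases that ends with thrombin cutting fibrinogen into fibrin. Antithrombin and the protein C system restrain the chain, and plasmin dissolves the fibrin. Complement is a parallel chain that starts on surfaces through antibody, lectins or spontaneous turnover, meets at C3, and ends with a pore made of C5b to C9. Several of these genes, among them fibrinogen and C3, are acute phase genes that interleukin 6 and related signals raise after injury and surgery.

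The 3 fibrinogen chain genes, the most abundant set among the 40, lie side by side on chromosome 3, and the 200 bases before each RefSeq gene start (GRCm38.p6) are shown because the 3 genes were measured together and are textbook targets of interleukin 6. Capitals mark CTGGGAA, the core of an interleukin 6 response element, and GTTAAT, a core motif of the liver factor HNF1, each searched on both strands.
Fga (chr3:83025953-83026152, forward strand): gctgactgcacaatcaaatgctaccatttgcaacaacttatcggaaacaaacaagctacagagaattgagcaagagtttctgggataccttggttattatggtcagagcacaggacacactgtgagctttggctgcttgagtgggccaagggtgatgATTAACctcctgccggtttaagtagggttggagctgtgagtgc
Fgb (chr3:83049864-83050063, reverse strand): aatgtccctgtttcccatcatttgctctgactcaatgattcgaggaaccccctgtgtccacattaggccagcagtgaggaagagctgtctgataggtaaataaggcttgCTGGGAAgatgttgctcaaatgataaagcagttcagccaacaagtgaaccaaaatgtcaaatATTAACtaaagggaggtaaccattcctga
Fgg (chr3:83007524-83007723, forward strand): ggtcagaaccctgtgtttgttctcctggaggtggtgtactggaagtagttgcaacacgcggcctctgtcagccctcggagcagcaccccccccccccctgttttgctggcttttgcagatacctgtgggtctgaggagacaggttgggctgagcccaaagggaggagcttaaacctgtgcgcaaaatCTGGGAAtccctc
CTGGGAA begins 91 bases before the start of Fgb and 13 bases before that of Fgg, and it is not in the window of Fga. The HNF1 motif, on the opposite strand, begins 43 bases before the RefSeq start of Fga and 29 bases before that of Fgb. In the GENCODE annotation that gave the symbols, Fga starts at 83026076, inside its window, and its HNF1 motif lies past that start. In the 250 bases before the start, CTGGGAA was found for 4 of the 32 members with a window and in 9.10% of all 32851 windows. GTTAAT was found for 9 of 32 members, against 6.43% of all windows. The STAT motif TTCNNNGAA was found for 6 of 32 against 7.02%, and the C/EBP motif TTGCNNAA for 8 of 32 against 9.56%, and TTCNNNGAA, which is its own reverse complement, can overlap CTGGGAA. A match is a match of letters only.

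The hairpin libraries differed in depth and in RNA make-up, and this touches every result below. Expected counts summed to between 25811763 and 27537235 per shNC library, to 10895508 and 10728583 in shTbl1xr1 1 and 2 (the shallow pair), and to 26976205 and 36720879 in shTbl1xr1 3 and 4 (the deeper pair). Mitochondrial transcripts took 11.3% and 14.8% of counts in the shallow pair and 4.52% to 7.34% in the other libraries. Levels below are in CPM, counts scaled to a common library total, after TMM scaling, which sets libraries to a common level over most genes. Tbl1xr1, the targeted gene, stood at 27.2, 35.9, 33.7 and 34.6 CPM in shNC 1 to 4 and 2.38, 2.07, 9.24 and 15.9 CPM in shTbl1xr1 1 to 4. Its levels did not overlap between groups, with a difference of -2.37 in mean log2(CPM + 1) and an exact two-sided permutation p of 0.0286, the smallest that 4 libraries against 4 can give. By edgeR's test across all genes, the log2 difference of Tbl1xr1 was -2.07 (SE 0.54) with an adjusted p of 0.29, so the targeted gene was not past the threshold used for the other genes. It was -3.83 in the shallow and -1.42 in the deeper pair. The 8 hepatocyte markers summed to 59679 to 77234 CPM in shNC, 83435 to 93938 in the shallow pair and 57410 to 82077 in the deeper pair, and all 8 were detected. Macrophage markers (8 of 8 detected) summed to 496 to 808 CPM in shNC, 205 to 221 in the shallow pair and 631 to 684 in the deeper pair. Endothelial markers (7 of 7) summed to 192 to 220.2, 109 to 124 and 216 to 222 CPM, and stellate cell markers (7 of 7) to 223 to 357, 132 to 136 and 199.9 to 307 CPM, in the same order. Cholangiocyte markers summed to 30.3 to 117, 35.9 to 54.0 and 58.0 to 227 CPM, again in that order. For red blood cells the sums were 474 to 1423, 686 to 737 and 444 to 999 CPM. Sums were low for neutrophils, at 3.81 to 9.57, 2.38 to 3.87 and 7.51 to 17.3 CPM. They were also low for lymphocytes, at 3.22 to 4.47, 1.80 to 2.13 and 1.84 to 3.10 CPM. Platelet markers had 2.94 to 4.88, 4.83 to 6.13 and 2.90 to 6.44 CPM. In such bulk tissue, fewer cells of a type and less RNA per cell cannot be told apart. The part of depth, RNA make-up and these markers in the results below was not tested.

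None of the 40 members was called by edgeR's quasi-likelihood test with Benjamini-Hochberg adjustment over all genes, at an adjusted p under 0.05. That test did not call Tbl1xr1 itself either, so the lack of a call does not show a lack of change. All 40 passed the filter on low counts. Over all 13908 genes tested, 7 were called, a share of 0.0503%. Limma-voom also called 0 members, and DESeq2 called 2, which are given below. On the log2 scale, 29 members had a positive difference (shTbl1xr1 minus shNC) and 11 a negative one, and the median was 0.18 against 0.01 for all genes tested. That split rests on the scaling: by library size alone, without TMM, 14 were positive and 26 negative, with a median of -0.15, while the median of all genes moved to -0.27. Over all genes, 50.6% were positive with TMM and 23.5% by library size alone. By role, differences were positive for 0 of 4 fibrin clot members, 4 of 5 tissue factor and common pathway factors, 3 of 4 contact pathway members, 5 of 5 anticoagulants, 4 of 4 fibrinolysis members, 4 of 4 lectin pathway members, 2 of 5 complement activation members, 5 of 5 membrane attack members and 2 of 4 complement regulators. The same roles by library size alone, in that order, had 0 of 4, 2 of 5, 3 of 4, 1 of 5, 2 of 4, 1 of 4, 1 of 5, 3 of 5 and 1 of 4. At an unadjusted p under 0.05, 8 members were higher (F7, Klkb1, Serpinc1, Cpb2, Hrg, C2, C6 and C8b), against 7.9% of all genes. No member was lower at that level, against 3.71% of all genes. The lowest shTbl1xr1 library exceeded the highest shNC library for 5 members, F7, Serpinc1, Hrg, C2 and C6, where 3.88% of all genes did so. The reverse held for no member and for 3.37% of genes. In deposited TPM, the means of F7, Serpinc1, Hrg, C2 and C6 differed between groups by less than the SD of shTbl1xr1 (values below, with fibrinogen).

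**Figure D1:**
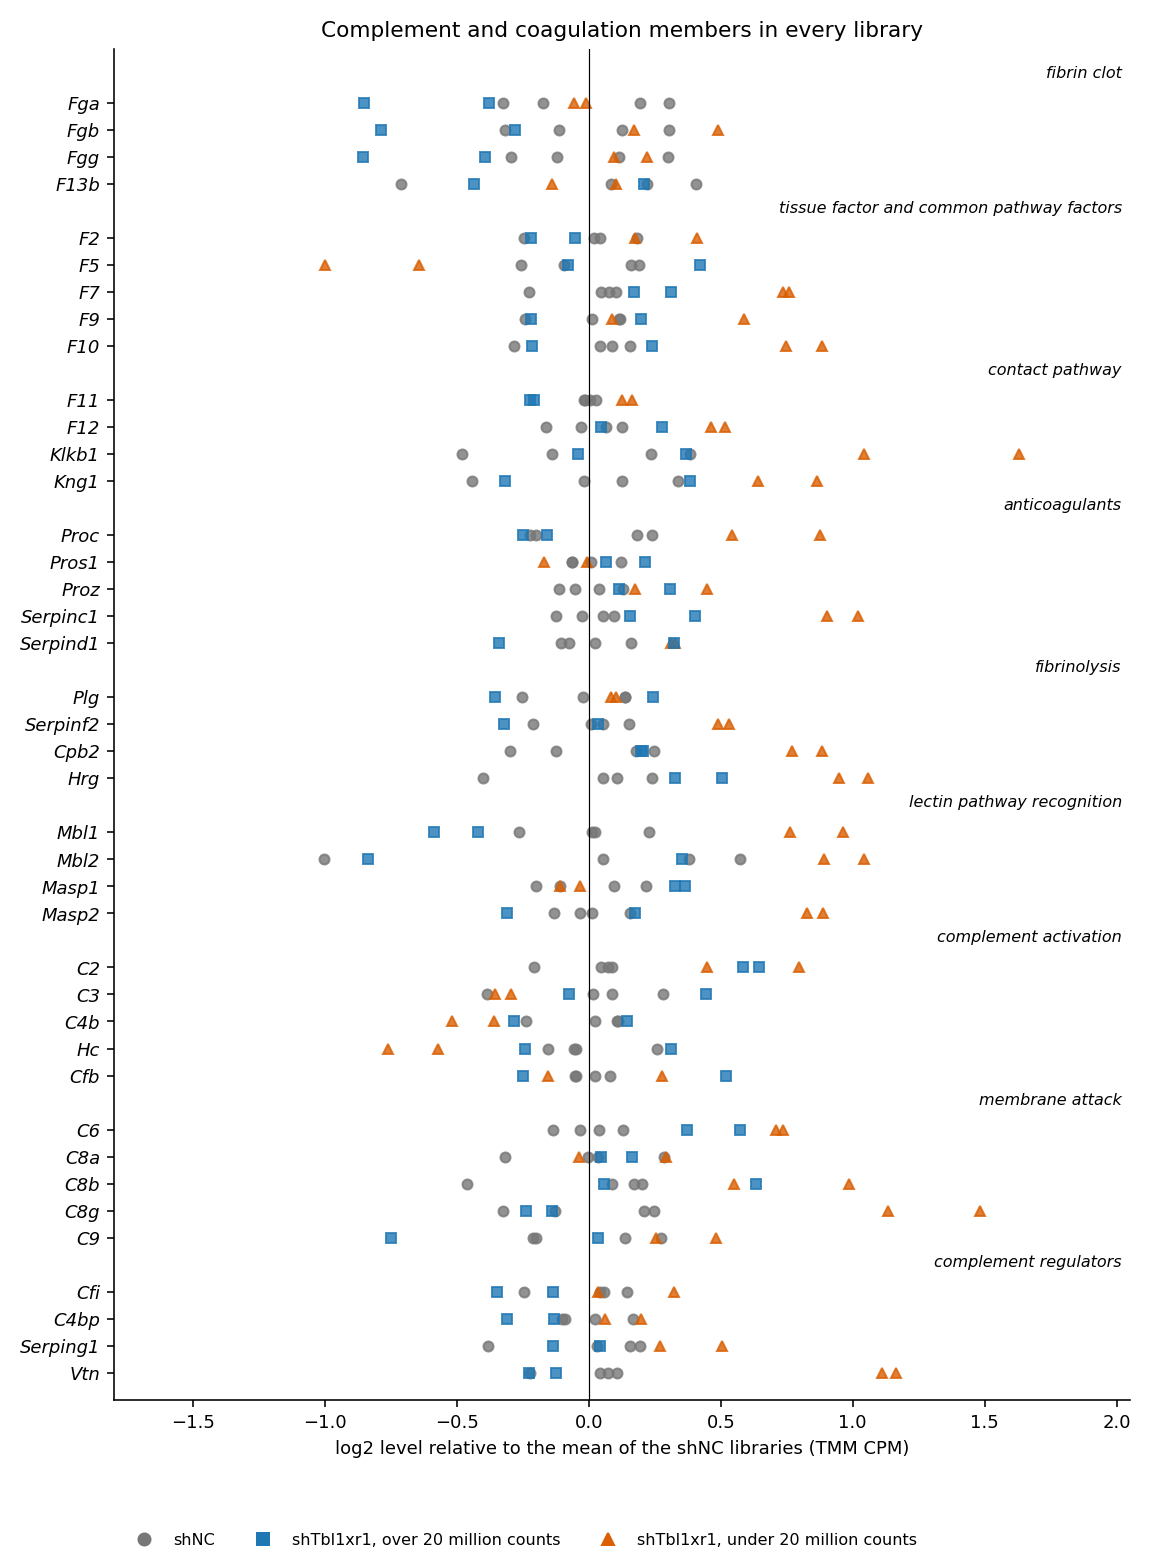
Level of each of the 40 members in every library, as log2 TMM-scaled CPM minus the mean of the 4 shNC libraries, ordered by role. Grey circles are shNC, blue squares the deeper shTbl1xr1 pair and orange triangles the shallow pair. Triangles stand apart on the right for members such as Klkb1, C8g and Vtn, and on the left for F5 and Hc, while squares and circles mostly mix.

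The largest pattern among the members was a split between the hairpin libraries themselves. Against shNC, the shallow pair alone gave 17 members higher and 3 lower by edgeR at an adjusted p under 0.05, where 21.5% of all genes were called higher and 21.1% lower. The 3 lower members were F5, C4b and Hc. The deeper pair alone gave 0 of 40 calls in either direction, against 0.0478% of all genes, and before adjustment 2 members (C2 and C6) stood higher at p under 0.05, where 6.73% of all genes did. In the other direction 3 members (Fga, Fgg and Mbl1) stood lower, where 4.62% of genes did. Members with a positive difference numbered 32 in the shallow pair and 20 in the deeper pair, with medians of 0.35 and 0.01. Both fits use the same shNC libraries, so they are not independent of each other.

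**Figure D2:**
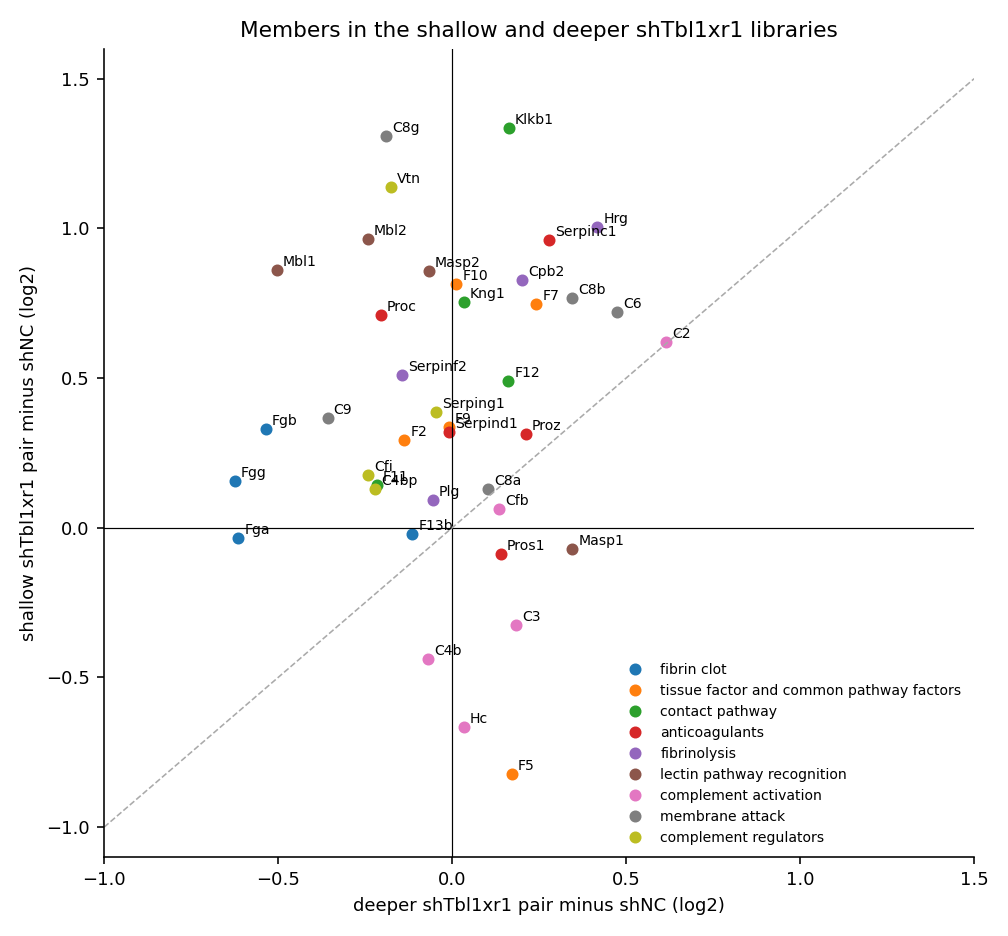
Difference from the shNC mean in the deeper shTbl1xr1 pair (x axis, log2) and in the shallow pair (y axis, log2) for each of the 40 members, coloured by role; the dashed line marks equal differences. C2 lies on the line at 0.61 and 0.62, while C8g and Vtn lie high on the left, at -0.19 and 1.31 and at -0.18 and 1.14.

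Transcript length ran along with that split. Members whose mean transcript length was below the median of 2107 bases had a median difference of 0.75 in the shallow pair, and the 20 longer members had 0.13. In the deeper pair the shorter and the longer members stood at -0.14 and 0.12. Over the 40 members, Spearman's rho between length and the shallow pair's difference was -0.69, and over all genes tested it was -0.53. For the deeper pair rho was 0.27 over the members and 0.25 over all genes. These are descriptions across genes that share the same libraries. F5 (7430.0 bases) and Hc (4508 bases), low in the shallow pair, were among the longest members, and C8g (1095 bases) and Serpinc1 (945 bases), high there, among the shortest. Klkb1 was both long (5249 bases) and high there.

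**Figure D3:**
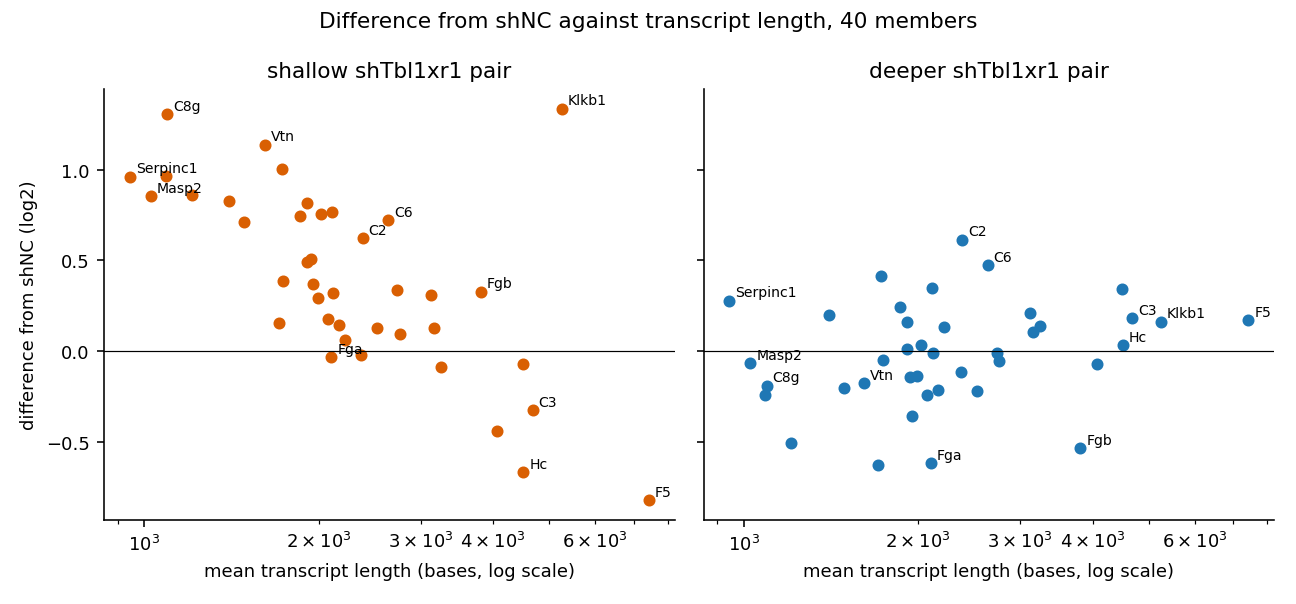
Difference from shNC (log2, y axis) against mean transcript length (bases, log scale) for the 40 members, in the shallow pair on the left and the deeper pair on the right. Short members are mostly above 0 and the longest below 0 on the left, with Klkb1 above the trend, and the slope on the right is weaker and of the opposite sign.

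Complement activation held the member with the smallest p. C2, the protease that pairs with C4b to form the classical and lectin C3 convertase (ENSMUSG00000024371.14; chromosome 17, 34862604 to 34898265, reverse strand), stood at 60.4, 59.8, 49.1 and 58.7 CPM in shNC 1 to 4 and 77.6, 98.6, 85.2 and 88.9 CPM in shTbl1xr1 1 to 4. Every hairpin library lay above every control library, and the shallow and the deeper pair did so by the same amount, 0.62 and 0.61 on the log2 scale. Group means were 57.0 ± 5.30 CPM and 87.6 ± 8.72 CPM (SD, n = 4 each). The log2 difference was 0.62 (SE 0.15) with an adjusted p of 0.234 by edgeR's quasi-likelihood test, and it rested on 620 to 3584 counts per library. DESeq2 gave an adjusted p of 0.00338, in a range of 0.00338 to 0.685 over 19 alternatives, and called 2 members higher, C2 and C6, against 1.59% of all genes. The shNC library 3 held the lowest C2 value, and without it the difference was 0.55. By library size alone the difference was 0.32 and the groups overlapped.

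The gene next to C2 showed no such separation. Cfb, the alternative pathway's counterpart of C2, lies 85 bases from C2 on chromosome 17. Its levels were 1174, 1287, 1176 and 1238 CPM in shNC 1 to 4 and 1095, 1474, 1746 and 1024 CPM in shTbl1xr1 1 to 4, and the groups overlapped, with a log2 difference of 0.13 (SE 0.23). A readthrough gene that overlaps both, Gm20547, was at most 0.25 CPM. C3, the hub of all complement routes, stood at 6285, 9982, 8293 and 8720.0 CPM in shNC 1 to 4 and 6693, 6415, 11158 and 7789.8 CPM in shTbl1xr1 1 to 4, with the hairpin libraries running from within the control range to above it. C3 had a log2 difference of -0.05 (SE 0.29), which took a positive sign without shNC 2 or without either shallow library. C4b, the C4 of the classical and lectin pathways, stood at 984, 1179, 1249 and 1252 CPM in shNC 1 to 4 and 810.0, 905, 954 and 1282 CPM in shTbl1xr1 1 to 4. The 3 lowest C4b values were all from hairpin libraries, yet the highest was too, and the difference was -0.24 (SE 0.22). C4b shares nearly all of its sequence with C4a, so the deposited estimates may divide reads between them, and its value is uncertain. Hc, which encodes C5, had -0.26 (SE 0.26), with both shallow libraries below the controls and the deeper pair spread on either side of them.

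In the membrane attack complex, C6, which binds C5b to start the pore (ENSMUSG00000022181.16; chromosome 15, 4727175 to 4814967, forward strand), stood at 194, 183, 174 and 162 CPM in shNC 1 to 4 and 291, 296, 265 and 230.2 CPM in shTbl1xr1 1 to 4. All 4 hairpin libraries were above all 4 controls, and the lowest hairpin value was in shTbl1xr1 4. Means were 178 ± 13.8 CPM and 270.4 ± 30.0 CPM (SD, n = 4 each). The log2 difference of C6 was 0.60 (SE 0.16), with an adjusted p of 0.298 by edgeR and 0.00695 by DESeq2, in a range of 0.00169 to 0.705 over 19 alternatives. It was 0.72 in the shallow pair and 0.47 in the deeper pair. The difference of C6 was 0.28 by library size alone, and the groups overlapped. With the length trend of each library removed it was 0.68, with an adjusted p of 0.121.

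The subunits of C8 had different values. C8b, the chain that docks C8 on the growing pore, stood at 241, 246, 156 and 227 CPM in shNC 1 to 4 and 313, 425, 223 and 332 CPM in shTbl1xr1 1 to 4. Its 4 hairpin libraries were spread, and shTbl1xr1 3 lay within the controls. C8b had a log2 difference of 0.57 (SE 0.24) and an adjusted p of 0.414 by edgeR. C8a, the chain that enters the membrane, had 0.11 (SE 0.20), and C8g, the small lipocalin chain, 0.73 (SE 0.39). C8g was high in the shallow pair, where its mean was 523 CPM against 212 in shNC and 184 in the deeper pair. C9, the ring-forming last component, stood at 674, 612, 481 and 484 CPM in shNC 1 to 4 and 664, 777, 331 and 570.4 CPM in shTbl1xr1 1 to 4. C9 had the lowest value of all libraries in shTbl1xr1 3 and the highest in shTbl1xr1 2, and a difference of 0.06 (SE 0.28).

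**Figure D4:**
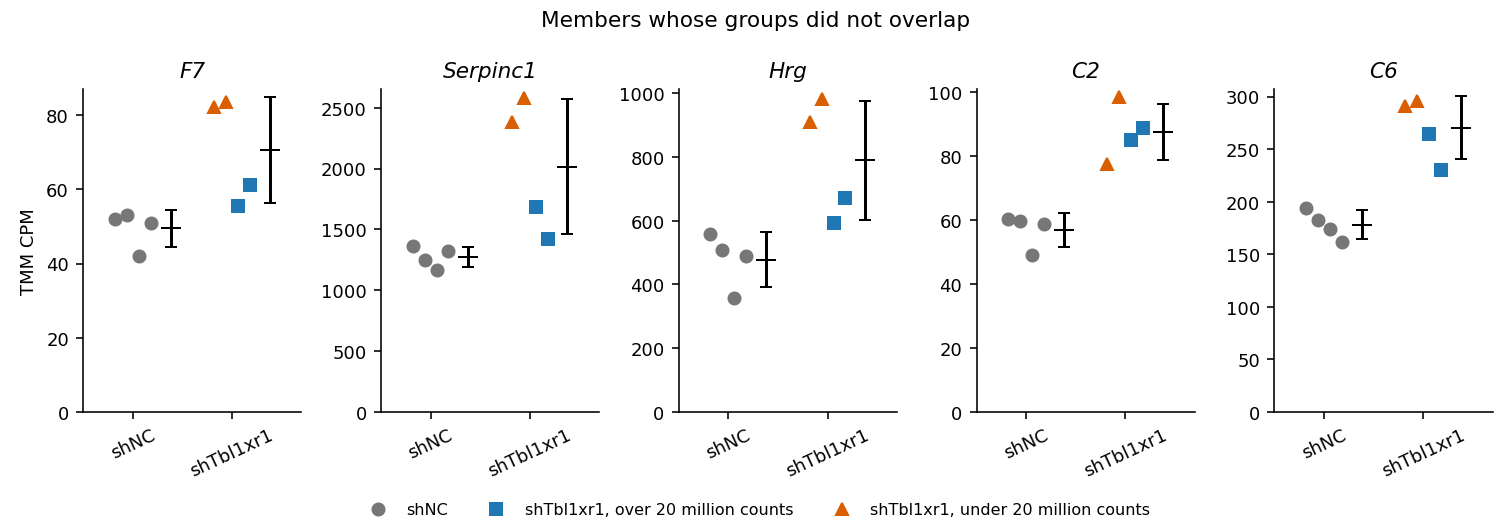
TMM-scaled CPM of the 5 members whose groups did not overlap, in each library (points; grey circles shNC, orange triangles the shallow and blue squares the deeper shTbl1xr1 pair), with the mean and SD of each group (black bars, n = 4). For C2 the shallow and deeper libraries mix, while for F7, Serpinc1, Hrg and C6 both shallow libraries lie above both deeper ones.

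Among the anticoagulants, Serpinc1, which encodes antithrombin, the main inhibitor of thrombin and factor Xa (ENSMUSG00000026715.12; chromosome 1, 160978585 to 161005863, forward strand), stood at 1361, 1251, 1169 and 1321 CPM in shNC 1 to 4 and 2381, 2585, 1684 and 1419 CPM in shTbl1xr1 1 to 4. The shallow pair lay well above the controls, and shTbl1xr1 4 only just exceeded the highest control. Means were 1276 ± 84.2 CPM and 2017 ± 555 CPM (SD, n = 4 each). The log2 difference of Serpinc1 was 0.66 (SE 0.25), with an adjusted p of 0.405 by edgeR, and it was 0.96 in the shallow and 0.28 in the deeper pair. By library size alone the groups still did not overlap, but with upper quartile scaling they did. Proz, which encodes protein Z, a cofactor in the inhibition of factor Xa, stood at 227, 257, 217 and 241 CPM in shNC 1 to 4 and 265, 321, 254 and 291 CPM in shTbl1xr1 1 to 4, and the groups overlapped by the value of shTbl1xr1 3 alone, with a difference of 0.26 (SE 0.16). Proc, which encodes protein C, had 0.31 (SE 0.28), its cofactor Pros1 0.03 (SE 0.14), and Serpind1, heparin cofactor II, 0.18 (SE 0.21). Proc differed in sign between the pairs, with 0.71 in the shallow and -0.21 in the deeper pair.

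In fibrinolysis, Hrg had the largest difference among the members whose groups did not overlap. Hrg encodes histidine-rich glycoprotein, a plasma protein that binds plasminogen, heparin and fibrinogen (ENSMUSG00000022877.9; chromosome 16, 22951072 to 22961656, forward strand). It stood at 558, 509, 357 and 489.9 CPM in shNC 1 to 4 and 911, 982, 592 and 670.2 CPM in shTbl1xr1 1 to 4, with the lowest control in shNC 3. Means were 478 ± 85.7 CPM and 789 ± 187 CPM (SD, n = 4 each), and the log2 difference was 0.72 (SE 0.24), with an adjusted p of 0.357 by edgeR. It was 1.0 in the shallow and 0.42 in the deeper pair, and the groups stayed apart by library size alone. Cpb2, the carboxypeptidase that protects fibrin from plasmin, stood at 349.6, 366, 251 and 283 CPM in shNC 1 to 4 and 527, 569.8, 354 and 356 CPM in shTbl1xr1 1 to 4. Its deeper libraries sat within the controls, and the difference was 0.53 (SE 0.23) with an adjusted p of 0.426 by edgeR. Plg, plasminogen itself, stood at 1793, 1792, 1368 and 1608 CPM in shNC 1 to 4 and 1751, 1727, 1273 and 1932 CPM in shTbl1xr1 1 to 4, and the lowest and the highest library were both hairpin libraries. Its difference was 0.03 (SE 0.22). Serpinf2, the main plasmin inhibitor, had 0.22 (SE 0.24).

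Of the tissue factor and common pathway factors, F7 alone had groups that did not overlap. F7, the protease that starts clotting with tissue factor (ENSMUSG00000031443.7; chromosome 8, 13026034 to 13035809, forward strand), stood at 52.0, 53.0, 42.2 and 50.9 CPM in shNC 1 to 4 and 82.2, 83.5, 55.6 and 61.3 CPM in shTbl1xr1 1 to 4. The margin was small in the deeper pair, where shTbl1xr1 3 only just exceeded the highest control. Means were 49.5 ± 4.97 CPM and 70.7 ± 14.3 CPM (SD, n = 4 each), with a log2 difference of 0.51 (SE 0.18) and an adjusted p of 0.382 by edgeR. The F7 groups overlapped by library size alone. F10, whose gene lies 1498 bases from F7 and whose product makes thrombin, stood at 349, 366, 269.8 and 338 CPM in shNC 1 to 4 and 551, 606, 283 and 387 CPM in shTbl1xr1 1 to 4, with both shallow libraries above and both deeper ones near the controls. F10 had a difference of 0.47 (SE 0.26). F2, prothrombin, stood at 1053, 1071, 875 and 1180.1 CPM in shNC 1 to 4 and 1173, 1381, 891 and 1000.3 CPM in shTbl1xr1 1 to 4. The groups of F2 overlapped, at 0.09 (SE 0.22). F9, the protease that is missing in haemophilia B, had 0.19 (SE 0.20) and F5, the cofactor of factor Xa, -0.23 (SE 0.30), with F5 at 189.6 and 243 CPM in the shallow pair against a shNC mean of 382 ± 55.6 CPM (SD, n = 4). The 7 vitamin K dependent members, a set formed after the values were seen (F2, F7, F9, F10, Proc, Pros1 and Proz), all had positive differences with a median of 0.26, but only 2 of the 7 were positive by library size alone. In the deeper pair alone 4 of the 7 were positive, with a median of 0.02, and in the shallow pair alone 6, with a median of 0.35. As the set came from these same values, the counts are a description only.

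The contact pathway gave the largest difference of all 40. Klkb1, plasma prekallikrein, stood at 127, 69.8, 88.5 and 115 CPM in shNC 1 to 4 and 201, 302, 94.6 and 126 CPM in shTbl1xr1 1 to 4. Both shallow libraries exceeded the controls and both deeper ones lay among them, and the log2 difference was 0.85 (SE 0.36) with an adjusted p of 0.414 by edgeR. An overlapping gene, Gm45753, was listed at 0 in shNC 1 and in the shallow pair and at 4.83 to 11.2 CPM elsewhere, so the estimates may divide reads between them. Summed over both genes, the levels were 127, 79.5, 99.6 and 124 CPM in shNC 1 to 4 and 201, 302, 99.4 and 136 CPM in shTbl1xr1 1 to 4, and the same libraries were high. F12, the zymogen that surfaces activate, stood at 342, 321, 293 and 357 CPM in shNC 1 to 4 and 468, 451, 396 and 338 CPM in shTbl1xr1 1 to 4, with only shTbl1xr1 4 inside the control range and a difference of 0.33 (SE 0.18). Kng1, kininogen, the source of bradykinin, stood at 1373, 1593, 926 and 1242 CPM in shNC 1 to 4 and 1966, 2294, 1011 and 1643 CPM in shTbl1xr1 1 to 4. Its hairpin libraries spanned from within to well above the controls, at 0.43 (SE 0.30), and its value is uncertain because Kng2 is a close copy. F11, which activates F9, had -0.03 (SE 0.14), with the shallow pair just above and the deeper pair just below 4 closely grouped controls.

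Of the 4 lectin pathway members, Mbl1, Mbl2 and Masp2 stood above all controls in the shallow pair. Each was, on average, below the control mean in the deeper pair. In the shallow pair 22 of 40 members and 29.2% of all genes tested stood above all controls. Below all controls there were 3 members and 32.9% of genes. In the deeper pair 5 members and 10.4% of genes stood below all controls, and 6 members and 10.6% of genes above them. Mbl2, a mannose-binding lectin, stood at 352, 245, 118 and 307 CPM in shNC 1 to 4 and 438, 487, 132 and 302 CPM in shTbl1xr1 1 to 4. Its controls already differed widely, with shNC 3 the lowest of all libraries, and the group difference was 0.41 (SE 0.43). Masp2, the protease that cuts C4 and C2 once a lectin has bound, stood at 135, 149, 122 and 131 CPM in shNC 1 to 4 and 238, 248, 108 and 151 CPM in shTbl1xr1 1 to 4, with shTbl1xr1 3 below all controls. Masp2 had 0.47 (SE 0.26). Mbl1 went from 0.86 in the shallow pair to -0.50 in the deeper pair, and the deeper libraries, at 116 and 130.0 CPM, lay below every control. Masp1, which activates Masp2, was at -0.07 and 0.35 in that order.

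Fga and Fgg, the most abundant transcripts among the members, stood lower in the deeper hairpin libraries than in any control. The same held for F11, Mbl1 and C4bp, in all 5 of 40 members, and for 10.4% of all genes tested. In the other direction, 6 members (F7, Serpinc1, Hrg, Masp1, C2 and C6) and 10.6% of genes stood above all controls in that pair. In shNC, where deposited TPM allows levels to be compared between genes, Fgg had 3722 ± 772 TPM and Fga 3715 ± 886 TPM (SD, n = 4), followed by Serpinc1 with 2394 ± 166, C3 with 2255 ± 389 and Vtn with 2048 ± 141 TPM. Neighbours in that order differed by less than the larger of their SDs, apart from the step from Fga to Serpinc1. On the CPM scale Fga stood at 4679, 6511, 6029 and 4214 CPM in shNC 1 to 4 and 5229.6, 5079, 2922 and 4059.6 CPM in shTbl1xr1 1 to 4, and Fgg at 3857, 5152, 4539 and 3416 CPM in shNC 1 to 4 and 4476, 4878, 2316 and 3187 CPM in shTbl1xr1 1 to 4. For both, the deeper pair lay below all controls and the shallow pair inside their range. Log2 differences were -0.31 (SE 0.29) for Fga, -0.04 (SE 0.32) for Fgb and -0.19 (SE 0.30) for Fgg, with adjusted p of 0.639, 0.958 and 0.79 by edgeR. The deeper pair stood at -0.61, -0.53 and -0.62 and the shallow pair at -0.03, 0.33 and 0.16, in the same order.

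Whether the fibrinogen groups overlapped depended on the scale. In TPM, Fga was 2923, 4518, 4444 and 2973 in shNC 1 to 4 and 1776, 1521, 2103 and 2904 in shTbl1xr1 1 to 4. Every hairpin library was below every control, with shTbl1xr1 4 just under shNC 1. The share of all genes that separated downward in TPM was not computed, so this is not read as a trait of fibrinogen. Members that separated upward in CPM had closer means in TPM, given for shNC and shTbl1xr1 (SD, n = 4 each). F7 had 39.1 ± 3.08 and 39.4 ± 10.5, Serpinc1 2394 ± 166 and 2494 ± 856, and Hrg 411 ± 52.8 and 472 ± 113. C2 had 32.9 ± 2.57 and 39.9 ± 14.1, and C6 97.5 ± 7.85 and 106 ± 44.4. Fga and Fgg, with F11 and C4bp, were also the 4 members whose groups separated downward by library size alone, a scale on which 6.99% of all genes did so and 1.01% separated upward. Between the chains, Fgg per Fga in TPM was 0.956 to 1.05 in shNC and 0.996 to 1.22 in shTbl1xr1. Fgb per Fga was 0.425 to 0.465 in shNC and 0.467 to 0.653 in shTbl1xr1, with the highest of both ratios in the shallow pair and the deeper pair only just above the controls for Fgb. F13b, the carrier subunit of the enzyme that crosslinks fibrin, had -0.10 (SE 0.25). All 40 members together took 4.24% to 5.33% of counts in shNC, 3.47% and 3.49% in the shallow pair and 4.27% and 4.36% in the deeper pair. In TMM-scaled CPM they summed to 39284 to 47948 in shNC, 47646 and 51442 in the shallow pair and 37072 and 39662 in the deeper pair. The order of the shallow pair and shNC thus rests on the scaling.

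**Figure D5:**
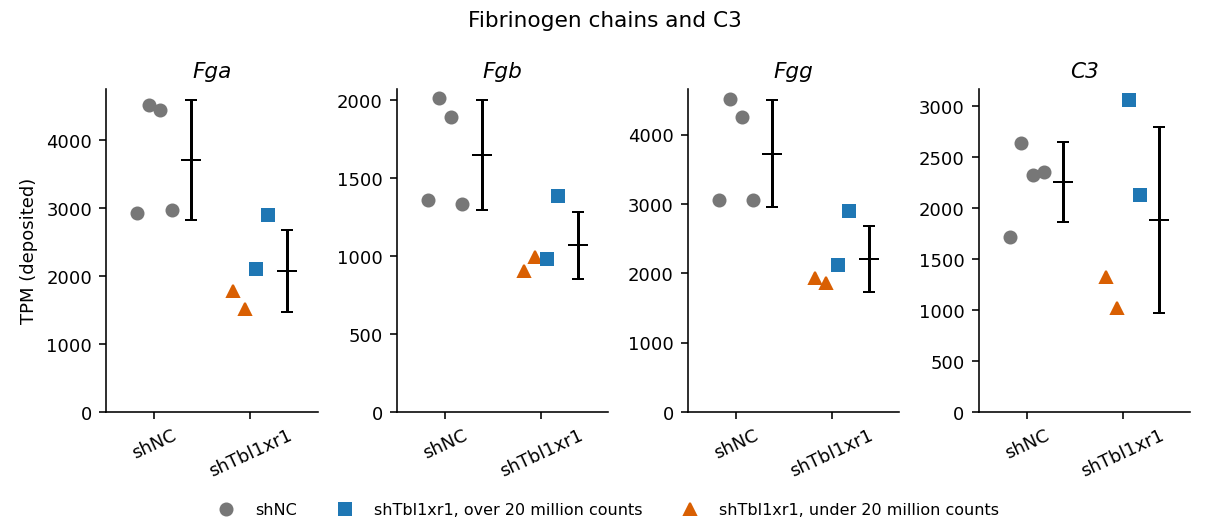
Deposited TPM of the 3 fibrinogen chains and of C3 in each library (grey circles shNC, orange triangles the shallow and blue squares the deeper shTbl1xr1 pair), with the mean and SD of each group (black bars, n = 4). All hairpin libraries lie below the controls for Fga and Fgg, whereas C3 spans a wider range in the hairpin libraries than in the controls. The share of all genes that separate downward in TPM was not computed.

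Of the 4 complement regulators, 2 had a positive and 2 a negative difference. Vtn, vitronectin, keeps forming pores out of membranes and also binds the plasminogen system. Vtn stood at 2537, 2429, 2019 and 2481 CPM in shNC 1 to 4 and 5281, 5094, 2013 and 2164 CPM in shTbl1xr1 1 to 4. Its shallow libraries were far above the controls, shTbl1xr1 3 was just under them and shTbl1xr1 4 was among them, which gave 0.62 (SE 0.36) with an adjusted p of 0.486 by edgeR. Serping1, the C1 inhibitor, which also restrains the contact proteases, stood at 716, 735, 493 and 657 CPM in shNC 1 to 4 and 775, 911, 585 and 661 CPM in shTbl1xr1 1 to 4, and the groups overlapped at 0.17 (SE 0.22). Cfi, the protease that inactivates C3b and C4b, had -0.02 (SE 0.21), and C4bp, its cofactor for C4b, -0.04 (SE 0.20).

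The members that are textbook acute phase reactants and the rest differed in their counts. Of the 10 acute phase members (Fga, Fgb, Fgg, C3, C4b, Cfb, C9, C4bp, Serping1 and Mbl2), 4 had a positive difference, with a median of -0.04. Of the other 30, 25 did, with a median of 0.32. By library size alone, 0 of 10 and 14 of 30 were positive, and in the deeper pair alone 2 of 10 and 18 of 30, with medians of -0.23 and 0.05. This difference between the sets was not tested. The fibrinogen genes among the 10 lie side by side on 1 chromosome. Acute phase genes outside these pathways, described below, went the other way, with 11 of 13 positive and a median of 0.60 in all 8 libraries with TMM.

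Genes of the same pathways outside the 40 gave no call either. Of 46 such genes in 4 lists, 45 were tested, 0 passed edgeR's adjusted threshold and 1 passed DESeq2's, 1 was higher and 3 were lower at an unadjusted p under 0.05, and the median difference was -0.17. That median was -0.67 in the shallow pair alone, with 13 of 45 positive, and 0.02 in the deeper pair alone, with 24 of 45 positive. Macrophage, endothelial and stellate cell markers were low in the same shallow pair (summed levels above), and their part in this was not tested. Clu, clusterin, a plasma inhibitor of the membrane pore, stood at 2316, 2729, 1804 and 1936 CPM in shNC 1 to 4 and 3511, 3853, 5304 and 3096 CPM in shTbl1xr1 1 to 4. All hairpin libraries were above all controls, with a log2 difference of 0.84 (SE 0.27) and adjusted p of 0.345 by edgeR and 0.0249 by DESeq2, in a range of 0.0126 to 0.705 over 19 alternatives. Colec11, a collectin of the lectin pathway, stood at 18.5, 17.4, 16.2 and 21.3 CPM in shNC 1 to 4 and 11.01, 15.3, 9.50 and 14.8 CPM in shTbl1xr1 1 to 4, all hairpin libraries below all controls, at -0.54 (SE 0.19) with an adjusted p of 0.39 by edgeR. F8, the cofactor of factor IXa, which endothelial cells make, had -0.54 (SE 0.32). F8 stood at -1.29 in the shallow pair, where endothelial markers summed to 109 to 124 CPM against 192 to 220.2 in shNC, and at -0.11 in the deeper pair, where they summed to 216 to 222. The part of these markers was not tested. Serpine2, a thrombin inhibitor of tissues, had 0.54 (SE 0.25).

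Among 13 acute phase genes outside these pathways, 1 passed the test. Orm2, an orosomucoid, stood at 106, 169.5, 135 and 88.9 CPM in shNC 1 to 4 and 693, 809, 371 and 569.7 CPM in shTbl1xr1 1 to 4, with no overlap. Its difference was 2.29 (SE 0.30) and its adjusted p 0.0475 by edgeR, close to the threshold and past it in 10 of 19 alternatives. It was not past it without any 1 shNC library or without shTbl1xr1 1 or 2, where the adjusted p was 0.122 to 0.256, nor in the deeper libraries alone (0.116) or with DESeq2's size factors (0.0516). The Orm genes are near-identical, so this value is uncertain. Of that list 11 of 13 differences were positive, with a median of 0.60. The median was 0.88 in the shallow pair alone, 0.12 in the deeper pair alone, where 7 of 13 were positive, and 0.20 by library size alone. Among 13 genes for the transcription factors and cytokine receptor behind liver plasma proteins, 0 passed edgeR's test and 6 were positive, and before adjustment 1 gene stood higher and 1 lower at p under 0.05. Foxa1, a factor of liver identity, had the smallest p there, at 0.58 (SE 0.25) and an adjusted p of 0.419 by edgeR.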

How the data were processed

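Per the labels' protocols, liver RNA came from TRIzol extraction and the 8 libraries from an MGIEasy kit. The deposited tables hold, per the file headers, expected counts, lengths and TPM for 55401 genes; the authors estimated these expected counts from aligned reads, so they can be fractional. Per the submitters' processing notes, the build was mm10 and the tools included STAR, RSEM and DESeq2 1.30.1. How strand was treated is not given in the sources used here. TPM values as deposited by the authors were used to compare levels between genes and were not tested. RSEM divides reads that fit several genes by likelihood.

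Symbols came from GENCODE mouse release 21, which gave all 40 members a row, and promoter windows from RefSeq. Expected counts were rounded, genes were filtered by filterByExpr (13908 kept), and libraries were scaled by TMM. Groups were compared with edgeR 4.0.16 in R 4.3.3 (quasi-likelihood F test, robust, no covariate), adjusted over all genes, with a threshold of 0.05. The standard error of a log2 difference is its size divided by the square root of F. CPM values are TMM-scaled, and log2 levels used a prior count of 2. Tbl1xr1 was tested on log2(CPM + 1), with a pseudocount of 1, by exact permutation over 70 arrangements. Alternatives were other scalings, no filter, DESeq2 1.42.0, limma-voom 3.58.1, a surrogate variable from sva 3.50.0, a replicate block, each library left out, each shTbl1xr1 depth pair alone and, added after the data were seen, a length trend removed and the overlap of the groups under other scalings. The test was tried on simulated counts first. No 2 libraries of a group agreed within sampling noise.

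The members and lists were chosen with earlier results of these data known. Values per library are given for the 2 members of each role with the smallest p and the member with the highest TPM; values of others were chosen after they were seen. Protein sequences were not used here.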

Additional observations from a re-analysis of the deposited data

Results flagged for a closer look

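Of 80 groups checked (40 members in 2 groups of 4 libraries), 2 held a library far from the other 3, where chance gives about 1 in 20. Serpind1, heparin cofactor II, was at 349 CPM in shTbl1xr1 3, while the other shTbl1xr1 libraries lay at 549 to 555 CPM. C2 was at 49.1 CPM in shNC 3, while the other shNC libraries lay at 58.7 to 60.4 CPM. Without shNC 3 the log2 difference of C2 was 0.55.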

How the results depend on the processing

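Low levels carry more counting error in shTbl1xr1 1 and 2, which had 10895508 and 10728583 counts. Both are hairpin libraries, so depth, RNA make-up and the hairpin cannot be told apart within that pair. The count of members called stayed at 0 in both directions under all alternatives except DESeq2, with 2 higher, and the shallow pair alone, with 17 higher and 3 lower. Of the other pathway genes, DESeq2 called 1 higher (Clu), the shallow pair alone 5 higher and 15 lower, and leaving out libraries gave 0 to 1 lower (Colec10 without shTbl1xr1 4). Members whose groups did not overlap numbered 2 higher and 4 lower by library size alone (1.01% and 6.99% of all genes), 4 higher with upper quartile scaling (2.79%; Serpinc1 overlapped) and 6 higher with DESeq2's size factors (3.97%; Proz was added), with 0 lower in the last 2. Leaving out libraries gave 5 to 11 higher and 0 to 2 lower (11 higher without shTbl1xr1 3, against 7.33% of all genes, and 2 lower, C4b and Hc, without shTbl1xr1 4, against 11.2%). The difference of Tbl1xr1 ranged from -2.83 to -2.01 with a library left out, and its exact permutation p was 0.0571, the smallest that 3 libraries against 4 can give.

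Whether the replicate numbers pair the libraries is not given by the labels. Same-numbered libraries had correlations of 0.38, -0.07, 0.30 and 0.12; numbers 1, 3 and 4 correlated best with their own number and number 2 did not, a hint from the data and not the design. A fit with a replicate block called 0 members higher and 0 lower, and 5 genes in all against 7; Orm2 had an adjusted p of 0.0757 in it.

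Members changed sign in several settings: 15 of 40 by library size alone, 3 with upper quartile scaling, 12 with 1 surrogate variable, 15 in the deeper libraries alone, 7 in the shallow pair alone and 3 with the length trend removed. All 15 turned negative by library size alone (F9, Proc, Pros1, Serpind1, Serpinf2, Mbl1, Masp1, Cfb and C8a beside those that follow). Values are given for members that the naming rule took. By library size alone these were F2 (-0.26), Proz (-0.046), Plg (-0.28), Mbl2 (-0.0070), C9 (-0.32) and Serping1 (-0.17). With upper quartile scaling they were Plg (-0.056) and C9 (-0.034). With 1 surrogate variable they were F2 (-0.093), Plg (-0.024), Mbl2 (-0.096), C3 (0.15), C9 (-0.24), Serping1 (-0.021) and Vtn (-0.026). In the deeper libraries alone they were F2 (-0.15), Plg (-0.037), Mbl2 (-0.24), Masp2 (-0.054), C3 (0.19), C9 (-0.32), Serping1 (-0.064) and Vtn (-0.18). The shallow pair alone turned Fgg (0.14), and the removed length trend turned C3 (0.14). With a library left out, 1 to 6 members changed sign, and ranges were -0.033 to 0.18 for F2, -0.052 to 0.14 for Plg, -0.26 to 0.044 for C3 and -0.11 to 0.25 for C9. Apart from the settings' own construction, the cause was not tested.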
